A study of Homo sapiens with 15 samples.

Results

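In all, 10 genes of the interferon response were followed through a transfection experiment in HepG2, a human liver cancer cell line: *MX1*, *MX2*, *IFIT1*, *IFIT2*, *IFIT3*, *IFIT5*, *DTX3L*, *PARP9*, *PARP12* and *PLSCR1*. They were picked by symbol, as 10 of the 41412 rows of the count matrix, with changes between transfected and untransfected cells already known. Values of that comparison are therefore given below as a description. All 10 passed the filter on low counts that left 18380 genes for testing. Cells received 1 µg of eGFP mRNA, which encodes a green fluorescent protein, in lipid nanoparticles formed with the reagent NanoLNP, and were harvested after 48 h. The mRNA was non-cloaked, weak-cloaked (0.1 M of the reagent CR-3 for 0.5 h at 25 °C), medium-cloaked (0.5 M for 1 h at 30 °C) or strong-cloaked (1 M for 2 h at 37 °C). The cells they were set against were untransfected. Each of the 5 groups had 3 biological replicates of the same wild-type line. No group received particles without mRNA, so effects of the reagent and of the mRNA cannot be told apart.

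Type I and type III interferons are secreted proteins that bind receptors on the cell surface and activate JAK kinases. The kinases activate transcription factors, STAT2 and IRF9 among them, that bind the interferon-stimulated response element in the promoters of many antiviral genes. Foreign RNA in the cytosol can start the cascade, which is why transfected mRNA is often chemically altered or shielded. MX1 and MX2 are dynamin-like GTPases that block the replication of viruses. The IFIT proteins bind RNA through tetratricopeptide repeats, and IFIT1 holds messages whose 5′ cap lacks the methyl marks of the host. DTX3L is a ubiquitin ligase that works as a dimer with PARP9, an ADP-ribosyltransferase family protein. PARP12 attaches single ADP-ribose units to proteins, and PLSCR1 is a phospholipid scramblase of the plasma membrane with antiviral activity. In hepatocytes, as in most cells, interferon induces these genes.

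The 10 genes lie at 5 places in the genome (GRCh38, GENCODE 29). *MX2* (chr21:41361943-41409390) and *MX1* (chr21:41420304-41459214) are neighbours on the plus strand, 10913 bp apart. *IFIT2* (chr10:89283694-89309276), *IFIT3* (chr10:89327894-89340971), *IFIT1* (chr10:89392546-89406486) and *IFIT5* (chr10:89414586-89421001) form a cluster on the plus strand. *PARP9* (chr3:122527924-122564577, minus strand) and *DTX3L* (chr3:122564238-122575203, plus strand) are head to head and share 217 exonic bases on opposite strands. *PARP12* (chr7:140023744-140063721) and *PLSCR1* (chr3:146515180-146544864) stand alone on the minus strand. Exons of *MX1* share 236 bases with the antisense gene AP001610.1, and those of *IFIT2* share 356 bases with AL353751.1 and 65 bases with LIPA. The strand setting of the counting is not given in the sources used here, so reads in these shared stretches may have been assigned to either gene. Reads that fit more than 1 IFIT gene are likewise uncertain.

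The promoters of these genes share the core letters of the interferon-stimulated response element, which are GAAA, any 2 bases and GAAA again. They were searched on both strands (TTTC, any 2 bases and TTTC on the other) with overlaps allowed. RefSeq promoters on GRCh38.p14, from 250 bases before to 50 bases after each start, were listed for 8 of the 10 genes. The letters were present in 11 of their 13 promoters, and in at least 1 promoter of 8 of 8 genes. Of all 35116 listed promoters, 3.57% held a match, and 4.38% of their 27305 genes had a match in at least 1 promoter. *DTX3L* and *PARP9* shared 1 match, which spans the start of *DTX3L*, at chr3:122564332-122564341. A match describes the letters and shows no binding. The stretches around the matches are printed for 6 of the genes described below, 5′ to 3′ on the strand of each gene, with the matching letters in capitals.
IFIT5, plus strand, chr10:89414503-89414593: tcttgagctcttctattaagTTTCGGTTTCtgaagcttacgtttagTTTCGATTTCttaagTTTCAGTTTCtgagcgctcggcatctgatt
IFIT1, plus strand, chr10:89392487-89392549: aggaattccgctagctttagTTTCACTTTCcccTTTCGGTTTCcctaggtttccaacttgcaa
MX1, plus strand, chr21:41420549-41420587: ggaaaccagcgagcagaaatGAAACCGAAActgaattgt
DTX3L, plus strand, chr3:122564312-122564361: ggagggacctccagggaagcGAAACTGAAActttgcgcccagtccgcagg
PARP12, minus strand, chr7:140062932-140062981: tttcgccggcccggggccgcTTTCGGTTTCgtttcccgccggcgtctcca
PLSCR1, minus strand, chr3:146544657-146544706: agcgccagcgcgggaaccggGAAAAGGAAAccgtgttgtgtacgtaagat
*IFIT5* had 3 matches, the first 45 bases before its start, and *IFIT1* had 2, the first 116 bases before its start. The match of *MX1* began 11 bases after its first start, that of *DTX3L* 6 bases before, that of *PARP12* 10 bases before and that of *PLSCR1* 91 bases before. Promoter 2 of *MX1* held no match, and promoter 3 held another match, not printed, that began 196 bases before its start. The same *PLSCR1* match began 79 bases before the other listed start of that gene.

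Library totals ran from 57128519 to 78548789 counts, and replicates of every group differed by more than counting noise. On the first principal component of all tested genes, which held 21.1% of the variance, 11 of the 12 transfected libraries lay between -7.8 and 44.1 and the 3 untransfected libraries between -70.5 and -68.6. Weak-cloaked replicate 1 lay at -51.6, nearer to the untransfected libraries than to the other transfected ones. The hepatocyte markers fixed for the check of the cell line summed to 16500 to 20900 CPM (counts scaled to a common library size with TMM factors) in transfected libraries and to 15300 to 18500 CPM in untransfected libraries. None of those 10 markers was at 0. After transfection, 2 (20%) were called lower and 3 (30%) higher, against 12.7% and 10.4% of all tested genes. Leukocyte markers summed to 935 to 1320 CPM in transfected libraries and 1150 to 1570 CPM in untransfected libraries, with *MS4A1* and *FCGR3A* at 0 throughout and 1 of 10 tested called, which was higher. Fibroblast and endothelial markers summed to 27.2 to 36 CPM in transfected libraries and 24.3 to 29.4 CPM in untransfected libraries, with 2 of 11 called lower and 1 higher. Markers of other epithelial lines summed to 325 to 557 CPM in transfected libraries and 317 to 372 CPM in untransfected libraries, with 1 of 10 called lower and 2 higher. The part of these marker differences in the results below was not tested.

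The resting levels of the 10 genes spanned a wide range. Per kilobase of the longest transcript, untransfected cells held 9.86 ± 0.712 CPM per kb of *PARP12* and 8.07 ± 0.678 CPM per kb of *PLSCR1* (SD, n = 3). *MX2* followed at 4.88 ± 0.309 CPM per kb and *DTX3L* at 2.57 ± 0.521 CPM per kb. *MX1* stood at 1.11 ± 0.0646, *IFIT5* at 0.985 ± 0.186, *PARP9* at 0.742 ± 0.127 and *IFIT1* at 0.541 ± 0.0519 CPM per kb. *IFIT3* had 0.201 ± 0.076 CPM per kb and *IFIT2* 0.0192 CPM per kb. From *PARP12* down to *MX1* the ranges of neighbours in this order did not overlap. The ranges of *MX1* and *IFIT5* overlapped, as did those of *IFIT5* and *PARP9*. The lowest *PARP9* library and the highest *IFIT1* library both rounded to 0.601 CPM per kb, so these ranges were not separated. *IFIT3* and *IFIT2* lay below all of these. The levels above are per length, and the CPM values below are for comparing libraries within a gene.

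Most of these genes were lower in transfected than in untransfected cells. *MX1* measured 1.29, 2.13 and 2.46 CPM in non-cloaked, 2.40, 1.15 and 1.32 CPM in weak-cloaked, 1.39, 1.05 and 1.09 CPM in medium-cloaked and 2.27, 1.04 and 1.21 CPM in strong-cloaked libraries, against 3.83, 4.06 and 3.61 CPM in untransfected libraries. All 12 transfected libraries lay below all 3 untransfected ones. The mean of the 4 transfected groups minus untransfected was -1.31 ± 0.25 on the log2 scale (SE), and the transfected mean was 40.8% of the untransfected mean. *MX2* measured 14.7, 13.8 and 11.8 CPM in non-cloaked, 15.4, 13.5 and 14.4 CPM in weak-cloaked, 13.4, 12.6 and 14.9 CPM in medium-cloaked and 12.8, 12.7 and 15.2 CPM in strong-cloaked libraries, against 21.3, 18.9 and 19.4 CPM in untransfected libraries. The groups again did not overlap, and the 4 transfected groups were close to each other. The log2 difference was -0.53 ± 0.11 (SE), a transfected mean at 69.4% of the untransfected one. In bulk samples, fewer expressing cells and less RNA per cell cannot be told apart.

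Among the RNA-binding IFIT proteins, *IFIT1* and *IFIT5* were measured well enough to describe. *IFIT1* had 2.06, 1.56 and 1.14 CPM in non-cloaked, 2.31, 1.47 and 1.32 CPM in weak-cloaked, 1.90, 1.38 and 1.26 CPM in medium-cloaked and 1.44, 0.989 and 0.667 CPM in strong-cloaked libraries, against 2.77, 2.35 and 2.37 CPM in untransfected libraries. All 12 transfected libraries lay below the untransfected ones, weak-cloaked replicate 1 by the smallest margin, and the log2 difference was -0.80 ± 0.24 (SE). *IFIT5*, a monomeric RNA-binding relative, which has the most promoter matches of the sequences shown, had 1.33, 1.55 and 0.956 CPM in non-cloaked, 4.27, 0.596 and 0.727 CPM in weak-cloaked, 1.14, 0.929 and 0.573 CPM in medium-cloaked and 1.39, 1.34 and 0.310 CPM in strong-cloaked libraries, against 4.27, 4.50 and 3.10 CPM in untransfected libraries. Weak-cloaked replicate 1 stood within the untransfected range and the other 11 transfected libraries below it. The log2 difference was -1.71 ± 0.47 (SE) with that library and -2.09 ± 0.31 without it, the largest of the 10 genes in both cases.

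*IFIT3* and *IFIT2*, partners of IFIT1 in the complex that these proteins form on RNA, were near the limit of detection. *IFIT3* had 24, 20 and 13 counts in non-cloaked, 66, 17 and 4 in weak-cloaked, 20, 10 and 21 in medium-cloaked and 22, 48 and 8 in strong-cloaked libraries, against 32, 63 and 34 counts in untransfected libraries. The groups overlapped, with weak-cloaked replicate 1 the highest of all 15 libraries, and the log2 difference was -0.61 ± 0.61 (SE), or -0.98 ± 0.51 without that library. *IFIT2* had 11, 0 and 0 counts in non-cloaked, 6, 7 and 6 in weak-cloaked, 0, 0 and 11 in medium-cloaked and 0, 7 and 0 in strong-cloaked libraries, against 7, 0 and 11 counts in untransfected libraries. No order of groups can be read from these counts, and a library at 0 allows up to 3 counts.

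**Figure D1:**
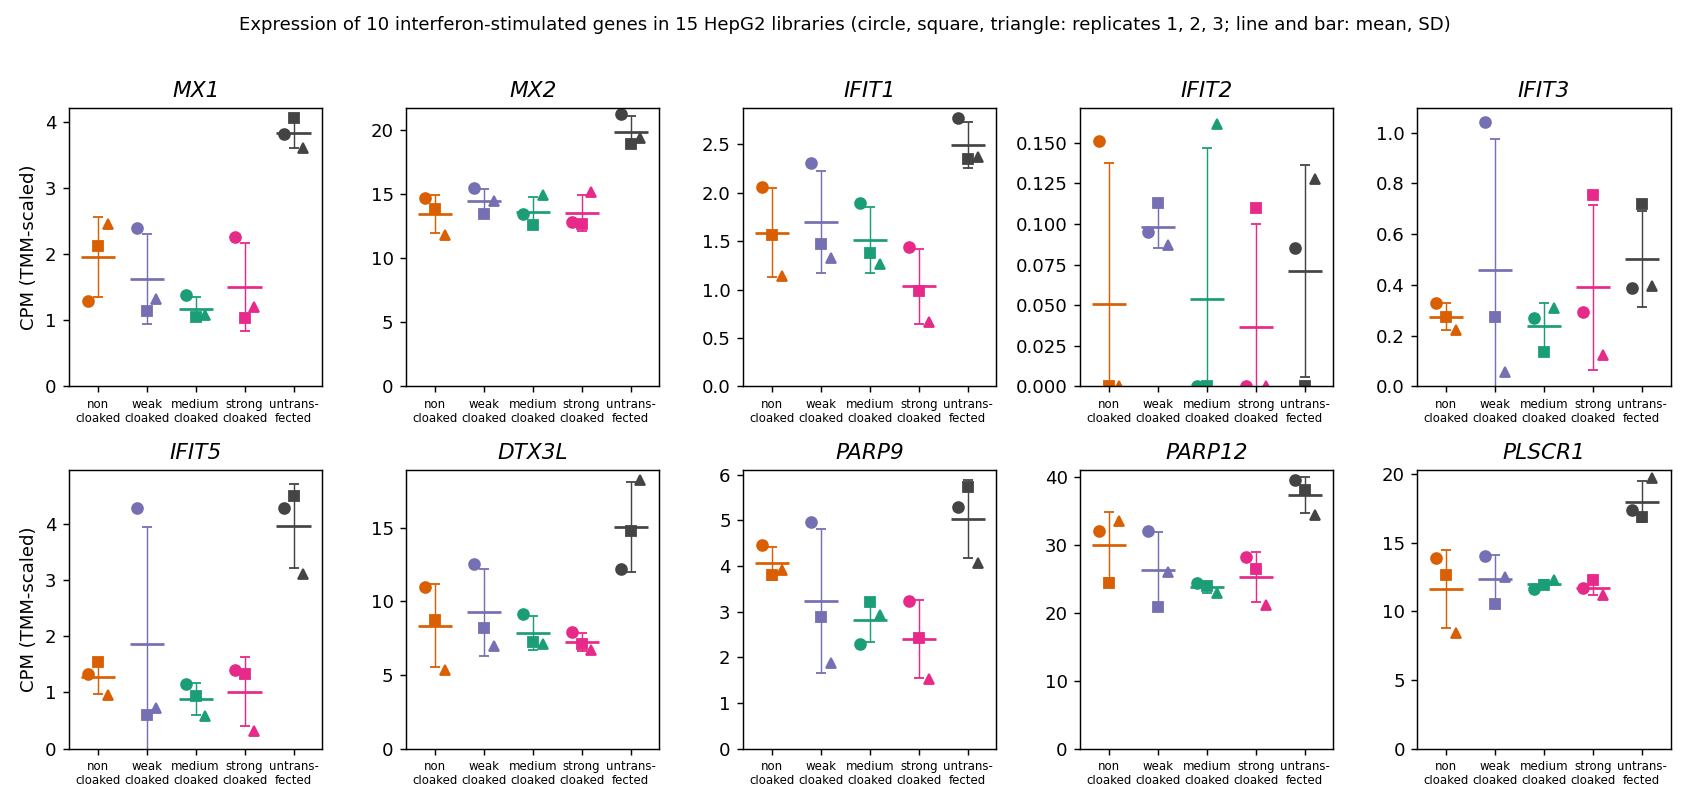
TMM-scaled CPM of each of the 10 genes in all 15 libraries, by group, with 1 linear axis per gene that starts at 0. Circles, squares and triangles are replicates 1, 2 and 3, and the line and bar are the group mean and SD (bars are clipped at 0); *MX1*, *MX2*, *IFIT1*, *PARP12* and *PLSCR1* had all 12 transfected libraries below all 3 untransfected ones.

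The ubiquitin ligase *DTX3L* and its partner *PARP9* were both lower on average in transfected cells. *DTX3L* had 10.95, 8.74 and 5.33 CPM in non-cloaked, 12.56, 8.21 and 6.98 CPM in weak-cloaked, 9.14, 7.24 and 7.08 CPM in medium-cloaked and 7.95, 7.07 and 6.72 CPM in strong-cloaked libraries, against 12.16, 14.79 and 18.25 CPM in untransfected libraries. Weak-cloaked replicate 1 alone reached the untransfected range, and the log2 difference was -0.89 ± 0.20 (SE). *PARP9* had 4.47, 3.80 and 3.91 CPM in non-cloaked, 4.96, 2.89 and 1.88 CPM in weak-cloaked, 2.29, 3.21 and 2.92 CPM in medium-cloaked and 3.24, 2.43 and 1.54 CPM in strong-cloaked libraries, against 5.29, 5.72 and 4.07 CPM in untransfected libraries. Here 10 of 12 transfected libraries lay below all untransfected ones, the exceptions being weak-cloaked replicate 1 and non-cloaked replicate 1. The log2 difference of *PARP9* was -0.71 ± 0.25 (SE). The log2 CPM of *PARP9* ranked 2238 of 11872 genes in likeness to *DTX3L* (Pearson r = 0.64 over 15 libraries, as a description over libraries that share group and depth). The 15 libraries include the step between transfected and untransfected cells, which was known when the genes were chosen. Any bearing of the overlap and the shared promoter match on this rank was not tested.

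*PARP12* and *PLSCR1* were the most abundant per length and had narrow errors. *PARP12* had 32.1, 24.5 and 33.6 CPM in non-cloaked, 32.2, 20.9 and 26.0 CPM in weak-cloaked, 24.5, 24.0 and 22.9 CPM in medium-cloaked and 28.3, 26.5 and 21.1 CPM in strong-cloaked libraries, against 39.7, 38.2 and 34.4 CPM in untransfected libraries. The groups did not overlap, although non-cloaked replicate 3 came close to untransfected replicate 3, and the log2 difference was -0.51 ± 0.13 (SE). *PLSCR1* had 13.9, 12.7 and 8.45 CPM in non-cloaked, 14.03, 10.6 and 12.5 CPM in weak-cloaked, 11.6, 11.95 and 12.3 CPM in medium-cloaked and 11.7, 12.3 and 11.2 CPM in strong-cloaked libraries, against 17.4, 16.9 and 19.7 CPM in untransfected libraries. No transfected library reached the untransfected range, and the log2 difference was -0.59 ± 0.14 (SE).

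Over the 10 genes, the median log2 difference of the transfected mean from untransfected was -0.66, against -0.05 over all tested genes. At an adjusted p below 0.05 in edgeR, 7 of the 10 were called lower (background 12.7%) and 0 higher (background 10.4%; 0 higher also in DESeq2). Since the genes were chosen with this comparison known, nothing is read from these counts. *IFIT2*, *IFIT3* and *PARP9* were not called; *PARP9* was called without weak-cloaked replicate 1. Without untransfected replicate 1, or without untransfected replicate 2, 4 genes were called lower, and in both cases *IFIT1*, *IFIT5* and *PARP12* lost theirs. In single groups against the same untransfected libraries, edgeR called 1 gene lower with non-cloaked mRNA (background 2.66%), 0 with weak-cloaked (1.19%; 5 at an unadjusted p below 0.05), 5 with medium-cloaked (7.49%) and 7 with strong-cloaked mRNA (7.11%). DESeq2 called 4 with non-cloaked (background 9.15%), 3 with weak-cloaked (5.61%), 6 with medium-cloaked (11.6%) and 8 with strong-cloaked mRNA (12.6%). These 4 comparisons share their 3 untransfected libraries. Leaving out weak-cloaked replicate 1 from the joint fit gave 5 with non-cloaked (background 8.22%), 7 with weak-cloaked (11.2%), 7 with medium-cloaked (10.6%) and 8 with strong-cloaked mRNA (11.4%). *MX1*, for example, differed from untransfected by -0.97 ± 0.35 with non-cloaked, -1.24 ± 0.35 with weak-cloaked, -1.70 ± 0.35 with medium-cloaked and -1.35 ± 0.35 with strong-cloaked mRNA (log2, SE), and *MX2* by -0.56 ± 0.14, -0.46 ± 0.14, -0.54 ± 0.14 and -0.55 ± 0.14 in the same order.

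**Figure D2:**
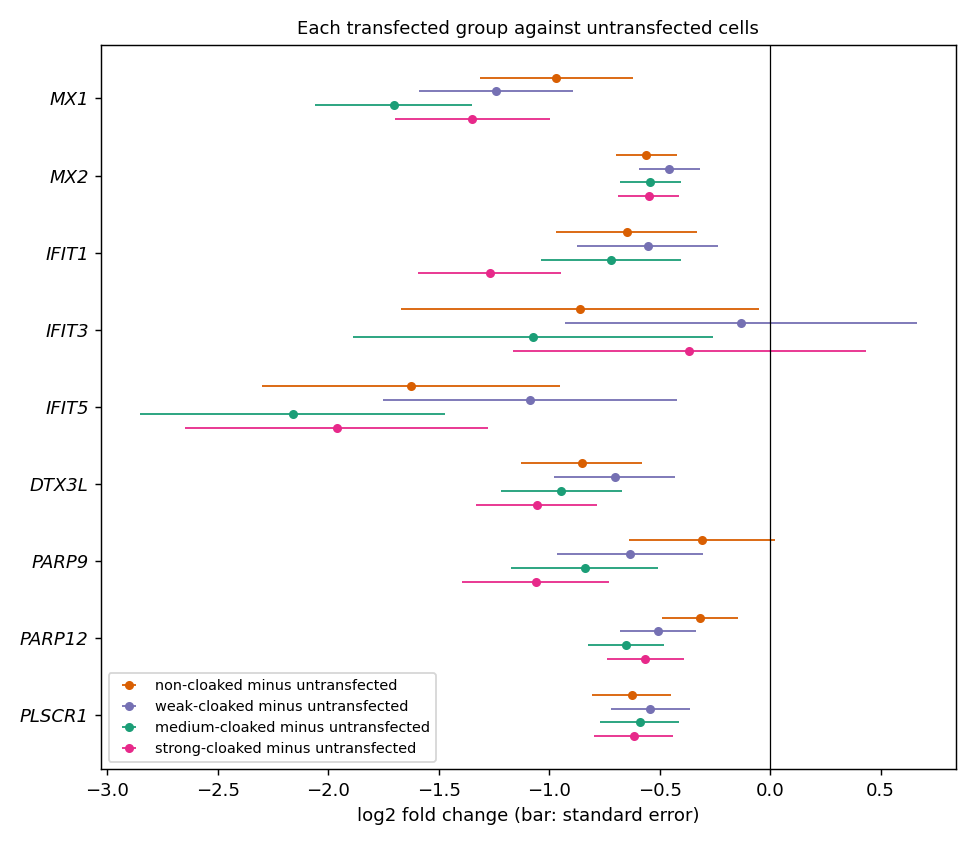
Log2 fold change of 9 genes (*IFIT2* is left out for its low counts) in each transfected group relative to untransfected cells; points are edgeR estimates and bars 1 standard error. Every point lies left of 0, from -2.16 for *IFIT5* with medium-cloaked mRNA to -0.13 for *IFIT3* with weak-cloaked mRNA.

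Transcript composition moved with this difference. Over all tested genes, the median log2 difference was -0.30, -0.09, 0.06 and 0.13 in gene bins of equal size from the lowest to the highest GC content, and 0.16, -0.01, -0.12 and -0.22 in bins from the shortest to the longest transcripts. *IFIT1*, *IFIT5* and *PLSCR1* fall in the lowest GC bin, and *DTX3L* and *PARP9* in the bin of the longest transcripts. With each library corrected for length and GC, the differences of the 7 called genes were -1.40 ± 0.43 for *IFIT5*, -1.26 ± 0.24 for *MX1*, -0.64 ± 0.15 for *DTX3L*, -0.52 ± 0.21 for *IFIT1*, -0.48 ± 0.12 for *PARP12*, -0.40 ± 0.10 for *MX2* and -0.37 ± 0.12 for *PLSCR1* (SE). *IFIT1* was no longer called under that correction. Scaling by library totals alone moved the median of all genes to -0.278, from -0.053 with TMM factors, and left every one of the 10 genes negative, *MX1* at -1.53 and *PLSCR1* at -0.81.

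Weak-cloaked replicate 1 was the highest transfected library for 7 of the 10 genes. It held 108% of the untransfected mean of *IFIT5*, where the other 11 transfected libraries averaged 24.9%. For *IFIT3* it held 208%, against 55.1% for the other 11, and for *PARP9* 98.8%, against 58.9%. The gap was smaller for *MX2*, at 77.8% against 68.6%, and for *PLSCR1*, at 77.9% against 65.2%. With all libraries, 5 of the 10 genes had every transfected library below every untransfected one (background 5.74%). Without weak-cloaked replicate 1 there were 7 (background 11.8%), the additions being *IFIT5* and *DTX3L*. No cause of the position of this library was tested.

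**Figure D3:**
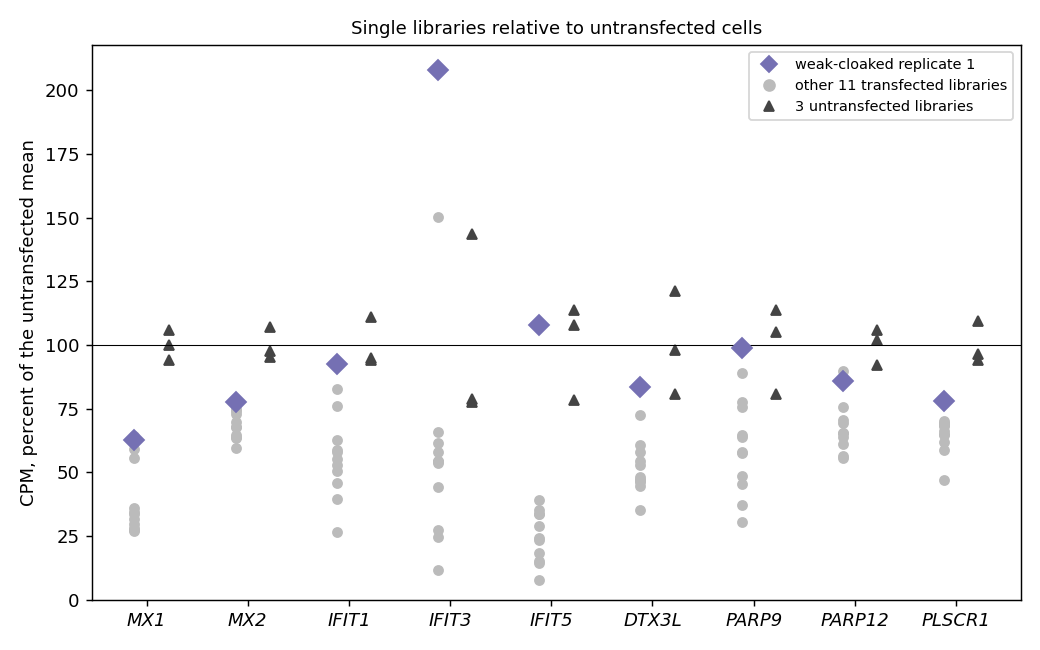
CPM of 9 genes in single libraries as a percent of the untransfected mean, with weak-cloaked replicate 1 as diamonds, the other 11 transfected libraries as circles and the 3 untransfected libraries as triangles. Weak-cloaked replicate 1 lies above the other transfected libraries for *IFIT3* (208%), *IFIT5* (108%) and *DTX3L* (83.4%), among others.

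The study asked what cloaking of the mRNA does to expression, and the choice of genes did not use the comparisons among the transfected groups. None of the 10 genes was called in any of 9 edgeR tests adjusted over all 18380 genes, nor in DESeq2 in those same 9 tests. The 9 tests were weak-, medium- and strong-cloaked against non-cloaked, the mean of the cloaked groups against non-cloaked, the 3 pairs of cloaking grades, a linear trend over the grades and any difference among the 4 groups. Over all genes, edgeR called 0.00544% (1 gene) for weak-cloaked against non-cloaked, for strong- and medium-cloaked against weak-cloaked and for any difference, and 0% for the others. DESeq2 called 21 genes for weak-, 76 for medium- and 15 for strong-cloaked against non-cloaked and 54 for any difference, from 0.06% to 0.414% of the genes it adjusted over the 9 tests. The median log2 difference of the 10 genes from non-cloaked was 0.10 for weak-cloaked, -0.15 for medium-cloaked and -0.29 for strong-cloaked mRNA, against 0.02, -0.02 and 0.01 over all tested genes. With all libraries these medians thus fell in the order of the grades. Without weak-cloaked replicate 1 they were -0.28, -0.14 and -0.30, which is not the order of the grades. Both the order and the sign for weak-cloaked mRNA turned on that library. The trend per grade was negative for 9 of the 10 genes, with a median of -0.12, or -0.07 without that library, and none was called.

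*PARP9* had the smallest unadjusted p of the 10 genes in these 9 tests, and it did not pass the adjustment. Medium-cloaked libraries, at 2.29, 3.21 and 2.92 CPM, all lay below the non-cloaked ones, as did strong-cloaked libraries. The share of all genes with such a gap was not computed, so nothing is read from it. Strong-cloaked cells held 3.24, 2.43 and 1.54 CPM against 4.47, 3.80 and 3.91 CPM in non-cloaked cells. The log2 difference was -0.75 ± 0.33 (SE; 95% interval -1.47 to -0.04), with an edgeR adjusted p of 1, and it was the 1 gene of 10 with an unadjusted p below 0.05 in that comparison (background 3.61%). Its trend was -0.25 ± 0.11 per grade (adjusted p = 1), again the 1 gene of 10 under 0.05 unadjusted (background 4.25%). *IFIT1* in strong-cloaked cells minus weak-cloaked cells was -0.71 ± 0.32 (95% interval -1.41 to -0.02, adjusted p = 1), the 1 gene of 10 under 0.05 unadjusted there (background 3.11%). Without weak-cloaked replicate 1 it was -0.43 ± 0.33 (adjusted p = 1), while *PARP9* in strong-cloaked minus non-cloaked cells was -0.76 ± 0.27 (adjusted p = 0.96). With all libraries, 0 of 10 had an unadjusted p below 0.05 in the other 6 tests. The background was 3.92% for weak-cloaked, 9.5% for medium-cloaked and 6.7% for all cloaked against non-cloaked. It was 4.33% for strong- against medium-cloaked, 3.41% for medium- against weak-cloaked and 4.1% for any difference. *MX1* in medium-cloaked cells minus non-cloaked cells was -0.74 (95% interval -1.49 to 0.02, adjusted p = 0.53). Without weak-cloaked replicate 1, the cloaked mean minus non-cloaked was -0.68 ± 0.22 for *PARP9* (edgeR unadjusted p = 0.0083, adjusted p = 0.38). *PARP12* and *MX1* were also under 0.05 unadjusted there. So were *MX1* and *PARP12* for medium-cloaked and *PARP9* and *PARP12* for weak-cloaked against non-cloaked. The other genes were not, and no gene passed the adjustment.

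The intervals limit how large a difference could have gone unseen. For strong-cloaked minus non-cloaked mRNA the 95% interval of the log2 difference was -0.29 to 0.31 for *MX2* and -0.37 to 0.39 for *PLSCR1*, around estimates of 0.01 for each. It was -0.62 to 0.12 for *PARP12*, -0.79 to 0.38 for *DTX3L* and -1.13 to 0.37 for *MX1*. For *IFIT5* it was -1.79 to 1.12 and for *IFIT3* -1.26 to 2.25, too wide to tell a doubling from no change. Estimates for weak-cloaked mRNA turned on 1 library: *IFIT5* in weak-cloaked minus non-cloaked cells was 0.54 ± 0.67 with weak-cloaked replicate 1 and -0.95 ± 0.51 without it (adjusted p = 0.98 and 0.76 in edgeR), and *IFIT3* was 0.73 ± 0.82 with it and -0.73 ± 0.80 without it (adjusted p = 0.97 and 0.93).

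**Figure D4:**
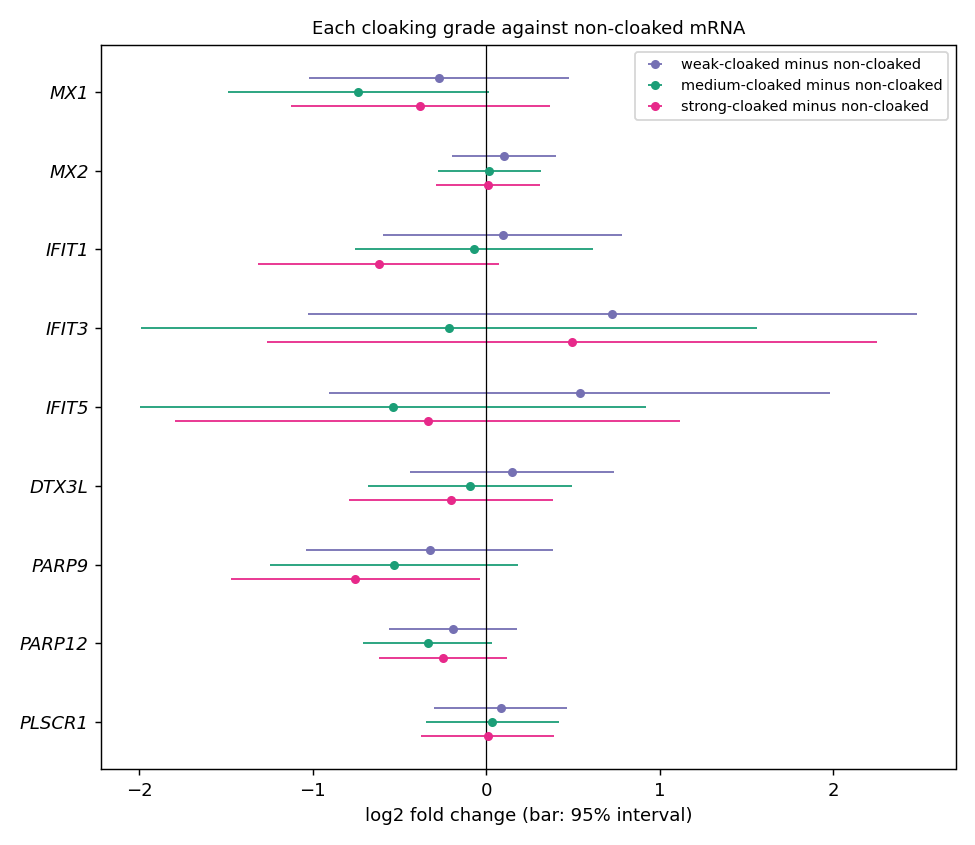
Log2 fold change of 9 genes (*IFIT2* is left out for its low counts) for each cloaking grade relative to non-cloaked mRNA; points are edgeR estimates and bars 95% intervals. The only interval that excludes 0 is that of *PARP9* with strong-cloaked mRNA, from -1.47 to -0.04, and its adjusted p was 1.

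Within the 12 transfected libraries the genes varied together in part. Of 45 pairs, 39 had a positive Pearson r of log2 CPM, with a median of 0.40, as a description over libraries that share depth and group. Of all pairs of tested genes, 49.7% were positive. Those pairs include genes that moved in opposite directions after transfection, whereas the genes here were chosen with that comparison known. The shares are therefore not matched, and nothing is read from their difference. Without weak-cloaked replicate 1, 30 of the 45 pairs were positive, with a median of 0.26. *IFIT1* and *DTX3L* had r = 0.80 over the 12 libraries and 0.73 without that one, and *PLSCR1* and *DTX3L* r = 0.76 and 0.71. The CPM of both *IFIT1* and *DTX3L* fell in replicate order within every transfected group. The neighbours *MX1* and *MX2* had r = -0.13 and -0.40, although r was 0.67 over all 15 libraries. Among genes whose log2 CPM averaged 1 or more, those most like *MX1* over 15 libraries were *ZBTB12* (r = 0.947), *ANAPC7* (0.941), *PRMT6* (0.937), *FEM1A* (0.935) and CEBPA-DT (0.935). Those most like *DTX3L* were *KMT2C* (0.967), *LARP4B* (0.964), *POLR3F* (0.962), *PRDM2* (0.961) and *IGF2BP3* (0.955). Of the 10 genes the closest was *PLSCR1*, at rank 127 of 11872 genes in likeness to *DTX3L* (r = 0.91; rank 88 without weak-cloaked replicate 1), while *MX2* ranked 1440 of 11873 in likeness to *MX1*.

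Upstream of these genes, interferons themselves were not detectable beyond a few counts at 48 h. Of 22 interferon genes, 18 had 0 counts in all 15 libraries, which allows at most 0.051 CPM in any library (3 counts, for counting error only), and no library had more than 8 counts over all 22. *IFNB1*, the interferon that many cells release first, had 4 counts in 1 library. The type III genes *IFNL2*, *IFNL3* and *IFNL1* had 18 counts over 4 libraries, 6 over 2 and 4 in 1. A sum of 8 counts was reached in untransfected as well as in medium-cloaked libraries. Of all tested genes, edgeR called 12.7% lower and 10.4% higher in transfected cells, and DESeq2 called 30.1% in either direction. Of 6 receptor genes, edgeR called 1 and DESeq2 2. The receptor gene called by edgeR, *IFNAR1*, is a chain of the type I receptor. It ranged over 11.9 to 29.4 CPM in transfected libraries and 23.0 to 34.9 CPM in untransfected libraries. It fell by 0.82 ± 0.20 (log2, SE, edgeR adjusted p = 0.011). The call was lost without untransfected replicate 3, at -0.63 ± 0.23 (edgeR adjusted p = 0.082). Of 15 kinases, transcription factors and feedback genes, edgeR called 1, *STAT3*, which rose by 0.29 ± 0.09 (adjusted p = 0.031) and was called in 18 of 24 alternatives, with 0.06 under total-count scaling. *STAT2* and *IRF9*, which take part in binding the response element, were not called: *STAT2* differed by -0.14 ± 0.10 and *IRF9* by 0.29 ± 0.30 (adjusted p = 0.33 and 0.53).

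Other interferon-stimulated genes included calls in both directions. Of 45 listed, 41 were tested, of which 10 (24.4%) were called higher and 6 (14.6%) lower, against 10.4% and 12.7% of all tested genes, with a median log2 difference of 0.10 against -0.05 over all tested genes. The ubiquitin-like modifier *ISG15* ranged over 37.5 to 67.1 CPM in transfected libraries and 26.0 to 28.5 CPM in untransfected libraries, and rose by 0.99 ± 0.13 (adjusted p = 0.00072). The RNA sensor regulator *DHX58* rose by 1.60 ± 0.25 (adjusted p = 0.0018), and *OAS1*, which makes the second messenger of RNase L, by 0.77 ± 0.11 (adjusted p = 0.00088). Among the 6 lower genes the smallest p was that of *TRIM25*, a ubiquitin ligase, named here after its values were seen. It ranged over 33.1 to 72.3 CPM in transfected libraries and 82.3 to 109.7 CPM in untransfected libraries and fell by 0.82 ± 0.17 (adjusted p = 0.0059). *ISG15*, *DHX58* and *OAS1* were likewise named by their p. The list was drawn up with earlier results known, so its split and these adjusted p values describe these genes and no more.

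**Figure D5:**
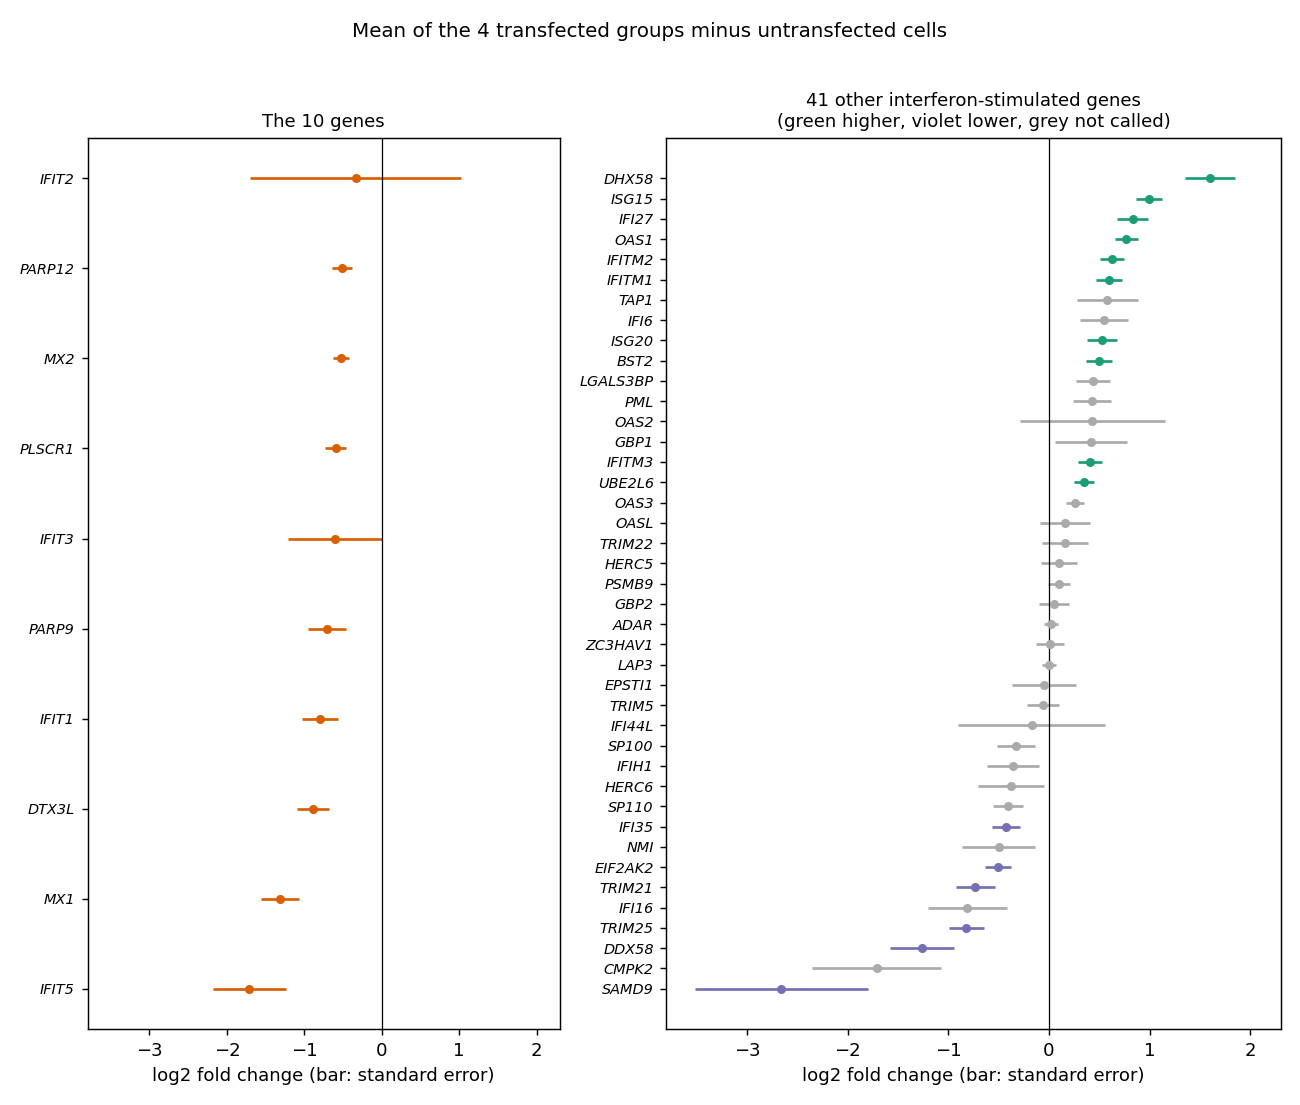
Log2 fold change of the mean of the 4 transfected groups relative to untransfected cells, for the 10 genes (left) and 41 other interferon-stimulated genes (right); bars are 1 standard error. All 10 points on the left are negative, from -1.71 for *IFIT5* to -0.34 for *IFIT2*, while on the right 10 genes were called higher, 6 lower and the rest neither.

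Among relatives of the 10 genes, shares called were near those of all tested genes in the PARP family. Of 15 other PARP family genes, 14 were tested, with 2 (14.3%) called lower and 1 (7.14%) higher, against 12.7% and 10.4% of all tested genes. *PARP4* fell by 0.75 ± 0.18 (adjusted p = 0.011), *TNKS2*, a tankyrase that builds chains of ADP-ribose, fell by 0.81 ± 0.22 (adjusted p = 0.018) and *PARP2*, which acts in DNA repair, rose by 0.50 ± 0.11 (adjusted p = 0.0069). *PARP14*, itself interferon-stimulated, differed by -0.38 ± 0.19 (adjusted p = 0.17). Of 4 other DELTEX genes 1 was called lower, *DTX4*, which fell by 0.80 ± 0.21 (adjusted p = 0.015). The calls of *PARP4* without untransfected replicate 2, of *TNKS2* without replicate 3 and of *DTX4* without replicate 1 or 2 were lost, as was that of *PARP2* under total-count scaling. Of the enzymes that remove ADP-ribose, 1 of 5 tested was called lower, *MACROD2*, at -1.41 ± 0.48 (adjusted p = 0.047), a call made in 6 of 24 alternatives. *MACROD2* ranged over 0.556 to 1.67 CPM in transfected libraries, against 0.924, 0.824 and 7.10 CPM in untransfected libraries, and without untransfected replicate 3 the difference was 0.33 ± 0.33 (adjusted p = 0.54). Of 10 other dynamin-family genes and 2 tested scramblases, edgeR called 0 in either direction, with 2 and 1 at an unadjusted p below 0.05, and DESeq2 called 1 and 0. In the mean of the cloaked groups against non-cloaked, edgeR and DESeq2 called 0 genes on these lists, and at most 2 genes of a list had an unadjusted edgeR p below 0.05.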

How the data were processed

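Poly(A)-selected, strand-specific libraries were read as 150 bp pairs from RNA with an integrity number of at least 7, per the labels' protocols. The authors deposited raw read counts per gene symbol; the submitters' processing notes name HISAT2, HTSeq, DESeq2 1.46.0, R 4.4.2 and GRCh38. Not given in the sources used here were its annotation, strand setting and filter. Of 41412 rows, 14176 were 0 in all 15 libraries.

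Genes were filtered with filterByExpr, scaled with TMM factors and fitted with edgeR 4.0.16 (limma 3.58.1, R 4.3.3): a mean per group, the robust quasi-likelihood test, and Benjamini-Hochberg adjustment over all 18380 genes, with a call at an adjusted p below 0.05. The biological coefficient of variation was 0.344. Counts at this depth are limited mainly by the spread between replicates. The fit was checked on simulated counts. CPM is TMM-scaled; log2 CPM used a prior count of 2. Lengths, GC and loci came from GENCODE 29, promoters from RefSeq. Alternatives were DESeq2 1.42.0, other scalings, filters and estimation, offsets for length and GC, replicate blocks and leaving out each library. Replicate numbers were not taken as pairing samples. Every one of the 10 genes is named; other genes are up to 3 called genes per list, by smallest p, and those with the role the list is named for, except a result not reported here. The 10 genes and the lists were chosen with earlier results of these data known. Adjusted p values of list genes between transfected and untransfected cells are therefore descriptions.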

Additional observations from a re-analysis of the deposited data

How the results depend on the processing

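Of the 10 genes, 7 were called lower in transfected than in untransfected cells, by the mean of the groups. DESeq2 called 8 (15.3% of all genes lower), total-count scaling 8 (23.7%), a minimum of 50 counts in 3 libraries 8 (16%) and the length and GC offsets 6 (9.9%), against 12.7% in the fit reported. Leaving out 1 library at a time gave 4 to 8 calls: 4 without untransfected replicate 1 (7.21% of all genes lower) or replicate 2 (6.56%), 5 without replicate 3 (8.07%), and 8 without weak-cloaked replicate 1 (17.8%) or strong-cloaked replicate 1 (11.6%). The cause of these changes was not tested. No log2 difference of the other 9 genes changed sign in this comparison under any alternative; that of *IFIT2* did in 2 of 23. With replicate number as a block, 8 were called, *PARP9* at -0.72 ± 0.22 being the addition, and with the block and the offsets together 6, *PLSCR1* being the one lost. Over 30 same-numbered pairs the correlation of deviations ran from -0.06 to 0.17 and was above 0.1 in 2, so the numbers were not taken as pairing. Even so, TMM factors fell from replicate 1 to replicate 3 in every transfected group. The CPM of *DTX3L* and *IFIT1* did the same, and that of no other of the 10 genes did. The cause of this order was not tested. Among the transfected groups, 0 of the 10 genes were called in any of the 9 tests under any alternative run, block included. Signs of uncalled differences there were less stable: of 247 values each, 13 for weak-, 17 for medium- and 12 for strong-cloaked against non-cloaked, 16 for the cloaked mean and 18 for the trend had the opposite sign. Fits with only the compared groups do not apply to the pooled comparison, which uses all 5. With 3 libraries a group, intervals for *IFIT2*, *IFIT3* and *IFIT5* are wide, and counts of *IFIT2* and *IFIT3* limit any statement on them.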
